A study of Homo sapiens with 12 samples.

Results

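The integrated stress response genes described here are ATF4 and 9 genes known to act with it or under it, namely ATF3, ATF5, DDIT3, DDIT4, TRIB3, CHAC1, ASNS, SESN2 and CEBPG. They were taken by name from the table of counts, in which 57353 gene names are listed and 30572 have a count. All 10 were found, and all 10 were among the 12998 genes that passed the filter on low counts and were tested. RNA-seq libraries came from MOLM-13, a human acute myeloid leukemia line that carries the FLT3-ITD mutation, which keeps the growth factor receptor FLT3 switched on. The cells were treated for 15 hr with vehicle (DMSO) or with 3 nM quizartinib (AC220), an inhibitor of FLT3, in either of 2 media. RPMI was the ordinary culture medium, and hBMSC-CM was a mixture of equal parts of RPMI and medium conditioned by HS-5, a human bone marrow stromal line. Each of the 4 groups had 3 libraries, no stromal cells were in the cultures, and all groups were the same unmodified cell line. The study describes its replicates as biological, and the labels do not say how the cultures were separated, so p-values measure the spread between these libraries.

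In the integrated stress response, kinases that sense amino acid shortage, unfolded protein in the endoplasmic reticulum, missing heme or viral RNA phosphorylate the translation factor eIF2. Most translation then slows, while the mRNA of ATF4 is translated better, and ATF4 protein switches on genes for amino acid synthesis, amino acid uptake and tRNA charging. Because ATF4 is set largely at translation, the mRNA values given here measure neither ATF4 protein nor eIF2 phosphorylation. ATF4 binds DNA paired with a C/EBP factor, at elements made of parts of both binding sites.

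The core of that composite element, TGATGNAA, was searched on both strands of RefSeq promoter windows (GRCh38.p14, 250 bases before to 50 after each start), and all 10 genes matched an entry. It was found for 4 of the 10, ATF3, CHAC1, ASNS and CEBPG, and for 1217 of 27305 genes in all (4.46%). It was found in 1270 of 35116 windows (3.62%). The match lay 191 bases before the start in ATF3, 209 in CHAC1, 68 in ASNS and 42 in CEBPG. ATF3, ASNS and CEBPG each also had a window at another start without a match. The 10 genes were chosen as known to act with or under ATF4, so their share is not an independent result. The stretches of 30 bases around these matches are shown, since they are the known binding motif of the factor that gives the group its name. Capitals mark the 8 letters of the match, and the sequences are 5′ to 3′ on the strand of the gene. In CHAC1 the match is on the opposite strand and reads TTGCATCA.
ATF3, chr1:212565205-212565234, plus strand: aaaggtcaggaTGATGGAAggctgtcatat
CHAC1, chr15:40953251-40953280, plus strand: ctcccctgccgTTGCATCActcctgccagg
ASNS, chr7:97872458-97872487, minus strand: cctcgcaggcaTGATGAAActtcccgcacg
CEBPG, chr19:33374060-33374089, plus strand: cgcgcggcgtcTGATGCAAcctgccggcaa
A match describes the letters only, and windows without one may hold other forms of the element.

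Library totals ran from 19966546 to 31546104 counts, so that 3 counts, taken as the limit of detection, corresponded to between 0.0951 and 0.150 CPM, the unit in which the reads of a gene are scaled to a common library total. Levels are CPM corrected by TMM, a factor per library that removes differences in composition. The share of counts from mitochondrial genes was 0.683% to 0.790% with vehicle in RPMI and 1.02% to 1.10% with quizartinib in RPMI. In hBMSC-CM it was 0.458% to 0.613% with vehicle and 0.683% to 0.947% with quizartinib. It thus moved with both the drug and the medium, without overlap between groups that differed only in the drug or only in the medium. With quizartinib in hBMSC-CM it overlapped that with vehicle in RPMI. The part of this share in the results was not tested. All 8 myeloid markers looked up were detected, with a summed level of 1162 to 2391 CPM. Of 10 markers of stromal cells, 5 had no count in any group, COL3A1, THY1, LUM, DCN and POSTN. The sum of the 10 stayed at 6.56 CPM or less in every library. It was 0.959 to 1.65 CPM with vehicle in hBMSC-CM and 1.15 to 1.66 CPM with vehicle in RPMI, and 2.10 to 2.50 CPM with quizartinib in hBMSC-CM and 5.73 to 6.56 CPM with quizartinib in RPMI, where COL1A1 made up 4.76 CPM of it on average.

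The members differed widely in level. Per kilobase of annotated exon, the vehicle-treated cells in RPMI held 173 CPM of ATF4, the most of the 10, and 42.0 CPM of DDIT4. CEBPG followed with 25.7 CPM per kilobase, TRIB3 with 11.3 and SESN2 with 10.4. ATF5 had 7.21 CPM per kilobase and DDIT3 6.64, and the libraries of this pair overlapped, with 6.83 to 7.58 for ATF5 and 6.19 to 7.31 for DDIT3. CHAC1 had 2.78 CPM per kilobase and ATF3 1.65. ASNS had 0.489 CPM per kilobase, and this level is uncertain, because 2415 of its 4896 exon bases are shared with a read-through gene on the same strand (ENSG00000284707) in GENCODE v44, and reads there cannot be given to ASNS alone. ATF4 had the highest level and DDIT4 the next in all 4 groups, while the order below them changed with the conditions. With vehicle in hBMSC-CM, DDIT4 reached 116 CPM per kilobase, and with quizartinib in hBMSC-CM it was 95.9, next to the 110 of ATF4, without overlap of the libraries. With quizartinib in RPMI, TRIB3 was at 2.93 CPM per kilobase, below DDIT3 at 7.96, without overlap of the libraries. TRIB3 was there also below ATF5 at 3.21, with libraries that overlapped.

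**Figure D1:**
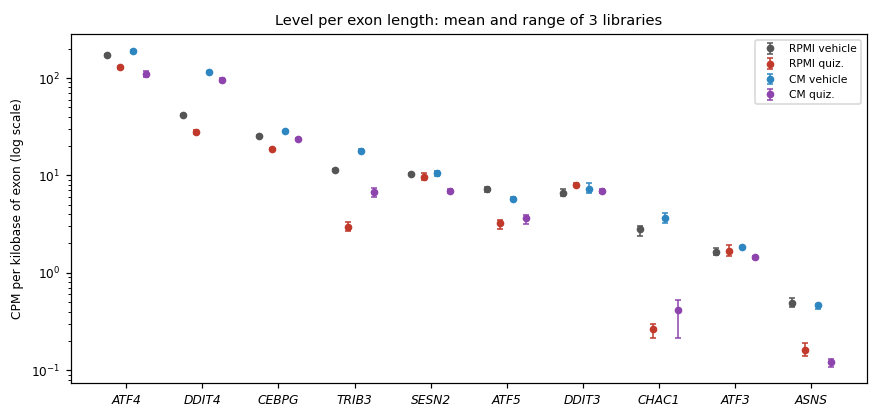
Level of each gene per kilobase of exon (CPM per kilobase, log scale) by group, as the mean of 3 libraries with bars from the lowest to the highest library. Genes are ordered by their level with vehicle in RPMI, from ATF4 at 173 to ASNS at 0.489, and DDIT4 lies higher in both hBMSC-CM groups than in both RPMI groups.

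The question of the first comparison was what inhibition of FLT3 did to these genes in the ordinary medium. Quizartinib lowered 7 of the 10, ATF4, ATF5, DDIT4, TRIB3, CHAC1, ASNS and CEBPG, and raised DDIT3 (edgeR quasi-likelihood test, adjusted p below 0.05 after Benjamini-Hochberg adjustment over all tested genes). Over all tested genes 39.4% were called lower and 39.8% higher. The median log2 fold change was -0.53 over the 10 genes and 0.02 over all genes. In hBMSC-CM, quizartinib lowered 9 of the 10, all but DDIT3, and all 10 log2 fold changes were negative. There the background was 33.6% lower and 33.5% higher, and the medians were -0.64 over the 10 and 0.01 over all genes. The same gene in both media is given side by side below, with the test of the difference between the media (the interaction, quizartinib effect in hBMSC-CM minus that in RPMI), in which 4 of the 10 were called higher and 2 lower, against 26.4% and 18.8% of all genes.

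**Figure D2:**
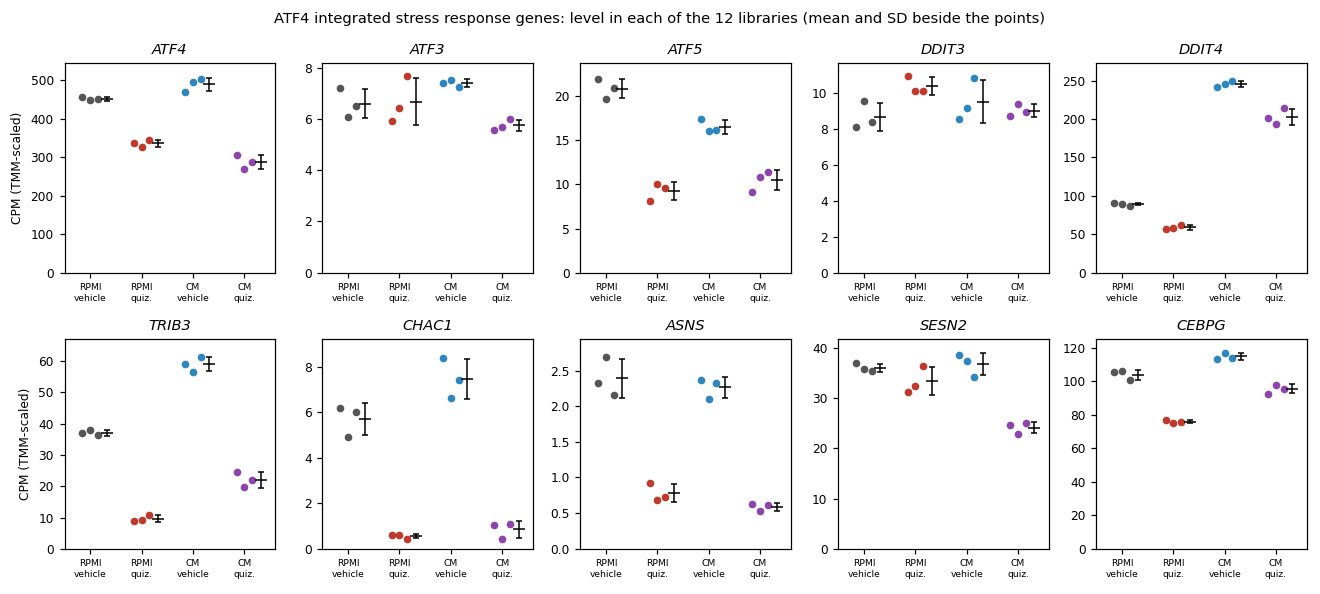
Level of each gene in each of the 12 libraries (CPM scaled by TMM, axes from 0), with the mean and SD of 3 libraries beside the points; CM is hBMSC-CM and quiz. is quizartinib. CHAC1 and ASNS fall to 1.08 CPM or less in all 6 quizartinib libraries, and DDIT4 is higher in the 6 hBMSC-CM libraries than in the 6 RPMI libraries.

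ATF4, the central transcription factor of the response (chr22:39519695-39522683, GRCh38), was expressed strongly in all libraries. With vehicle in RPMI it was at 455, 447 and 451 CPM, and with quizartinib in RPMI at 337, 326 and 345 CPM. With vehicle in hBMSC-CM it was at 470, 496 and 503 CPM, and with quizartinib in hBMSC-CM at 305, 269 and 287 CPM. Every quizartinib library was below every vehicle library, and the lowest values were those of the drug in conditioned medium. The log2 fold change was -0.43 ± 0.046 (SE) in RPMI (edgeR adjusted p = 2.94e-08) and -0.77 ± 0.047 in hBMSC-CM (edgeR adjusted p = 6.8e-12). The decrease was larger in hBMSC-CM by 0.34 on the log2 scale (interaction -0.34 ± 0.066, edgeR adjusted p = 0.000206).

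CEBPG, a C/EBP factor that pairs with ATF4 (chr19:33373685-33382686), fell in both media. With vehicle in RPMI it was at 105, 106 and 101 CPM, and with quizartinib in RPMI at 76.7, 75.0 and 76.0 CPM. In hBMSC-CM it was at 114, 117 and 114 CPM with vehicle and at 92.7, 98.1 and 95.7 CPM with quizartinib. All 4 groups were apart from each other, with the lowest values in RPMI with the drug. The log2 fold change was -0.46 ± 0.041 in RPMI and -0.27 ± 0.040 in hBMSC-CM, and it was smaller in hBMSC-CM (interaction 0.19 ± 0.057, edgeR adjusted p = 0.0106). ATF4 and CEBPG thus fell by nearly the same amount in RPMI and had interactions of opposite sign.

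ATF5, a bZIP factor that is itself under translational control by eIF2 and is known for the mitochondrial stress response (chr19:49928702-49933935), was at 21.9, 19.7 and 20.9 CPM with vehicle in RPMI and at 8.15, 10.0 and 9.64 CPM with quizartinib. The hBMSC-CM libraries were at 17.5, 16.1 and 16.1 CPM with vehicle and at 9.19, 10.8 and 11.46 CPM with quizartinib. The drug libraries were below the vehicle libraries in both media, and the drug libraries of the 2 media overlapped. ATF5 fell 2.25-fold in RPMI (log2 -1.17 ± 0.089, edgeR adjusted p = 8.47e-11) and 1.59-fold in hBMSC-CM, and the decrease was smaller in hBMSC-CM (interaction 0.50 ± 0.13, edgeR adjusted p = 0.00343). Of its 2892 exon bases, 565 overlap NUP62 on the opposite strand, and whether the counting used strand is not stated.

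ATF3, a bZIP factor induced early by many stresses (chr1:212565334-212620777), was low and nearly level. It was at 7.21, 6.09 and 6.49 CPM with vehicle in RPMI and at 5.91, 6.42 and 7.69 CPM with quizartinib, and these groups overlapped. In hBMSC-CM it was at 7.43, 7.54 and 7.26 CPM with vehicle and at 5.58, 5.69 and 5.99 CPM with quizartinib, without overlap. The log2 fold change in RPMI was 0.00 with a 95% interval of -0.22 to 0.22, and in hBMSC-CM ATF3 fell by 0.37 ± 0.11 on the log2 scale (edgeR adjusted p = 0.00547). The difference between the media did not pass the threshold (interaction -0.37 ± 0.15, edgeR adjusted p = 0.0545), and passed it under 4 of 19 alternatives.

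DDIT3 encodes CHOP, the factor that links a long-lasting response to cell death (chr12:57516588-57521737). It was at 8.09, 9.56 and 8.38 CPM with vehicle in RPMI and at 10.97, 10.1 and 10.1 CPM with quizartinib. The values in hBMSC-CM were 8.54, 9.19 and 10.9 CPM with vehicle and 8.70, 9.41 and 8.93 CPM with quizartinib, and these groups overlapped. The increase in RPMI was 1.20-fold (log2 0.26 ± 0.097, edgeR adjusted p = 0.0173), and the change in hBMSC-CM was -0.07 with a 95% interval of -0.28 to 0.13, or 0.0288 when scaled by library size only. The interaction was -0.34 ± 0.14 (edgeR adjusted p = 0.0541) and was called under 5 of 19 alternatives. The call in RPMI was lost without RPMI quizartinib replicate 1 (edgeR adjusted p = 0.0537), without RPMI vehicle replicate 1 (0.0704) and without the filter on low counts (0.191). Of the 1307 exon bases of DDIT3, 355 overlap the tRNA synthetase gene MARS1 on the opposite strand, listed as MARS in the counts, which was at 285 ± 5.51 CPM with vehicle and 99.9 ± 1.01 CPM with quizartinib in RPMI (SD, n = 3). What this overlap did to the DDIT3 counts was not tested.

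TRIB3, a pseudokinase that binds ATF4 and CHOP and restrains the kinase AKT (chr20:362835-397559), was among the genes with the larger decreases. It was at 37.1, 38.1 and 36.3 CPM with vehicle in RPMI and at 8.92, 9.08 and 10.9 CPM with quizartinib. In hBMSC-CM it was at 59.0, 56.7 and 61.2 CPM with vehicle and at 24.7, 19.6 and 22.0 CPM with quizartinib. The 4 groups did not overlap, and each hBMSC-CM group was above the RPMI group with the same treatment. TRIB3 fell 3.89-fold in RPMI (log2 -1.96 ± 0.082, edgeR adjusted p = 2.58e-15) and 2.65-fold in hBMSC-CM (log2 -1.41 ± 0.072, edgeR adjusted p = 4.3e-13). The decrease was smaller in hBMSC-CM (interaction 0.55 ± 0.11, edgeR adjusted p = 0.000353). In RPMI, 2.94% of tested genes had a log2 fold change as low or lower.

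CHAC1, an enzyme that breaks down glutathione (chr15:40952962-40956512), had the largest decrease of the 10 in both media. With vehicle it was at 6.18, 4.92 and 6.03 CPM in RPMI and at 8.38, 6.64 and 7.40 CPM in hBMSC-CM. With quizartinib it was at 0.618, 0.587 and 0.438 CPM in RPMI and at 1.053, 0.437 and 1.08 CPM in hBMSC-CM. Between 126 and 255 reads stood behind each vehicle value and between 9 and 30 behind each quizartinib value. CHAC1 fell 10.2-fold in RPMI (log2 -3.35 ± 0.22, edgeR adjusted p = 6.68e-12) and 8.68-fold in hBMSC-CM (log2 -3.12 ± 0.20, edgeR adjusted p = 1.13e-11). The interaction was 0.23 with a 95% interval of -0.50 to 0.96 (edgeR adjusted p = 0.63), so that a difference between the media of that size was not detectable at this depth. In hBMSC-CM only 2 of the 12998 tested genes fell further, CHAC1 being at place 3 from the lowest.

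ASNS, the enzyme that makes asparagine and a classic target of ATF4 (chr7:97851677-97872542), had few reads, between 12 and 72 in a library. It was at 2.32, 2.69 and 2.16 CPM with vehicle in RPMI and at 0.927, 0.691 and 0.730 CPM with quizartinib. The conditioned medium gave 2.37, 2.10 and 2.33 CPM with vehicle and 0.632, 0.525 and 0.608 CPM with quizartinib. All 6 drug libraries were below all 6 vehicle libraries. ASNS fell 3.05-fold in RPMI (log2 -1.61 ± 0.19, edgeR adjusted p = 7.31e-08) and 3.83-fold in hBMSC-CM (log2 -1.94 ± 0.20, edgeR adjusted p = 4.02e-08), and the interaction was -0.33 with a 95% interval of -0.94 to 0.29. If the annotation used for counting holds the read-through gene named above, the counts cover only the part of ASNS that is not shared with it. Whether it does was not checked.

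DDIT4, known as REDD1, restrains the growth kinase complex mTORC1 (chr10:72273919-72276036). It was at 90.0, 89.9 and 87.2 CPM with vehicle in RPMI and at 56.2, 58.3 and 62.4 CPM with quizartinib. Its levels in hBMSC-CM were 241, 246 and 250 CPM with vehicle and 202, 193 and 214 CPM with quizartinib. The drug lowered it in both media, and every hBMSC-CM library was above every RPMI library. The log2 fold change was -0.60 ± 0.048 in RPMI and -0.28 ± 0.045 in hBMSC-CM (edgeR adjusted p = 2.41e-10 and 1.41e-05), with an interaction of 0.32 ± 0.066 (edgeR adjusted p = 0.000436).

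SESN2, a sestrin that senses leucine and also restrains mTORC1 (chr1:28259518-28282491), was at 36.9, 35.8 and 35.4 CPM with vehicle in RPMI and at 31.2, 32.3 and 36.5 CPM with quizartinib, and these groups overlapped. In hBMSC-CM it was at 38.5, 37.4 and 34.3 CPM with vehicle and at 24.5, 22.8 and 25.0 CPM with quizartinib. The lowest values were those of the drug in conditioned medium. The log2 fold change was -0.12 with a 95% interval of -0.25 to 0.01 in RPMI (edgeR adjusted p = 0.0918) and -0.61 ± 0.066 in hBMSC-CM (edgeR adjusted p = 5.6e-08). The decrease was larger in hBMSC-CM (interaction -0.49 ± 0.091, edgeR adjusted p = 0.000157), as it was for ATF4.

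**Figure D3:**
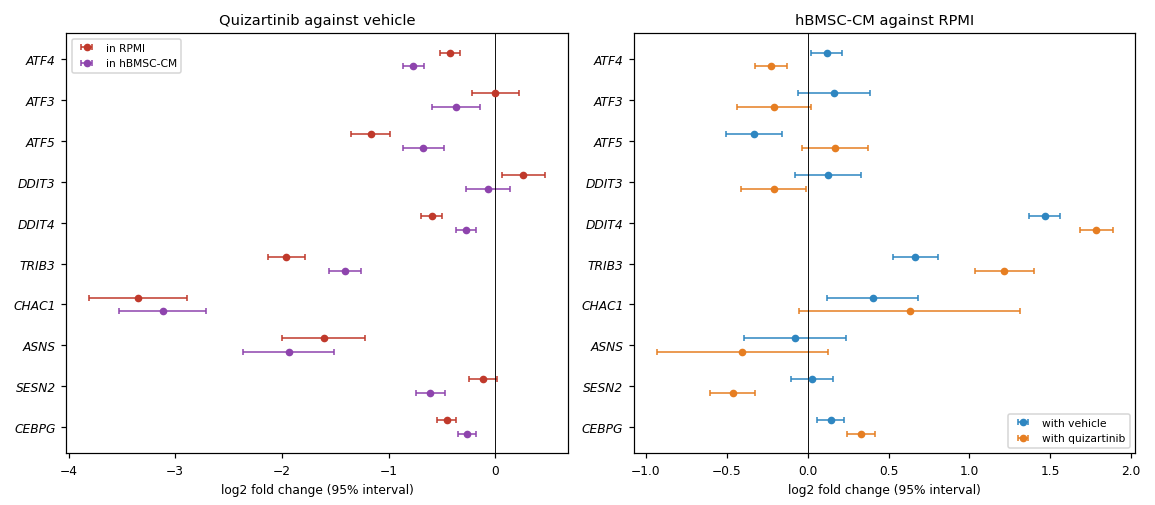
Log2 fold change of each gene with its 95% interval, for quizartinib against vehicle in RPMI and in hBMSC-CM (left) and for hBMSC-CM against RPMI with vehicle and with quizartinib (right). CHAC1 lies furthest to the left for the drug in both media, at -3.35 and -3.12, and DDIT4 furthest to the right for the medium, at 1.46 and 1.78.

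The conditioned medium by itself, without the drug, raised DDIT4, TRIB3, CHAC1 and CEBPG and lowered ATF5. Among all tested genes 16.6% were called higher in hBMSC-CM and 15.5% lower. DDIT4 was 2.76-fold higher (log2 1.46 ± 0.046, edgeR adjusted p = 2.29e-15), and 99.7% of tested genes had a log2 fold change no higher than that. TRIB3 was 1.59-fold higher (log2 0.67 ± 0.068, edgeR adjusted p = 1.94e-07). CHAC1 was 1.32-fold higher (edgeR adjusted p = 0.0284), a call that was lost without hBMSC-CM vehicle replicate 1 (0.159) or RPMI vehicle replicate 2 (0.139). CEBPG was 1.10-fold higher (edgeR adjusted p = 0.00955), a call lost without RPMI vehicle replicate 3 (0.0613). ATF5 was 1.26-fold lower (edgeR adjusted p = 0.00441). ATF4 had a log2 fold change of 0.12 with a 95% interval of 0.02 to 0.21 (edgeR adjusted p = 0.0562), and it passed the threshold under 9 of 21 alternatives. SESN2 had one of 0.03 with an interval of -0.10 to 0.16.

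With quizartinib in both media, 3 of the 10 had a higher level in hBMSC-CM, DDIT4, TRIB3 and CEBPG, and 2 were lower, ATF4 and SESN2. Among all tested genes 35.9% were called higher and 33.9% lower. DDIT4 was 3.45-fold higher (log2 1.78 ± 0.048, edgeR adjusted p = 7e-18) and TRIB3 was 2.32-fold higher (log2 1.22 ± 0.087, edgeR adjusted p = 5.66e-11). CEBPG was 1.26-fold higher (log2 0.33 ± 0.041, edgeR adjusted p = 3.51e-07). ATF4 itself was 1.17-fold lower (log2 -0.23 ± 0.047, edgeR adjusted p = 0.00021) and SESN2 was 1.38-fold lower (log2 -0.46 ± 0.066, edgeR adjusted p = 2.53e-06). CHAC1 had a log2 fold change of 0.63 with a wide 95% interval, -0.05 to 1.31 (edgeR adjusted p = 0.0921). Without hBMSC-CM quizartinib replicate 2, which had 10 reads of CHAC1, it was 0.93 and passed the threshold (edgeR adjusted p = 0.01).

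Quizartinib in hBMSC-CM was also set against vehicle in RPMI, to see which genes stood at their untreated level in drug-treated cells in conditioned medium. Of the 10, 7 were still lower, against 31.4% of all genes, and DDIT4 was higher, against 30.6%. CHAC1 was 6.57-fold lower, ASNS 4.03-fold, ATF5 2.00-fold, TRIB3 1.67-fold, ATF4 1.57-fold and SESN2 1.496-fold lower. CEBPG was 1.09-fold lower (edgeR adjusted p = 0.0105), a call that was lost without hBMSC-CM quizartinib replicate 1 (0.0523). DDIT4 was 2.28-fold higher (edgeR adjusted p = 4.14e-15). ATF3 and DDIT3 were not called, with 95% intervals of -0.43 to 0.02 and -0.15 to 0.26 on the log2 scale. These comparisons share groups with those above and are not independent of them.

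The other genes of the pathway were taken from lists by function. Of the 4 kinases that phosphorylate eIF2, 1 rose and 1 fell with the drug in RPMI, against 39.8% and 39.4% of all tested genes. The heme-sensing kinase EIF2AK1 (HRI) had a log2 fold change of 0.01 for quizartinib in RPMI, and the RNA-sensing kinase EIF2AK2 (PKR) one of 0.07, and neither was called. EIF2AK3 (PERK), the kinase of the endoplasmic reticulum, fell by 0.13 on the log2 scale. EIF2AK4 (GCN2), the sensor of uncharged tRNA, rose from 48.1 ± 0.567 to 67.3 ± 2.11 CPM in RPMI (SD, n = 3). In hBMSC-CM EIF2AK4 rose from 50.1 ± 3.61 to 59.5 ± 1.87 CPM. PPP1R15A (GADD34), the subunit that directs a phosphatase to eIF2 and is itself induced in the response, rose from 79.2 ± 1.52 to 144 ± 7.05 CPM in RPMI and from 55.7 ± 1.25 to 71.9 ± 4.78 CPM in hBMSC-CM. The alpha subunit of eIF2, EIF2S1, fell from 197 ± 5.86 to 80.2 ± 1.11 CPM in RPMI, and EIF2B3, a subunit of its exchange factor, from 51.0 ± 0.602 to 19.5 ± 0.466 CPM. In hBMSC-CM EIF2S1 fell from 219 ± 5.54 to 150 ± 9.56 CPM and EIF2B3 from 60.8 ± 3.16 to 38.2 ± 1.87 CPM. Of 18 genes in this list, 5 rose and 9 fell in RPMI, with a median log2 fold change of -0.09. In hBMSC-CM 4 rose and 7 fell, with a median of -0.07. Over all tested genes 39.8% rose and 39.4% fell in RPMI, and 33.5% rose and 33.6% fell in hBMSC-CM. The medians over all genes were 0.02 in RPMI and 0.01 in hBMSC-CM.

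Genes known as metabolic targets of ATF4 fell with the drug. Among all tested genes, 39.4% were called lower in RPMI and 33.6% in hBMSC-CM. All 14 tested genes of amino acid synthesis fell in RPMI and in hBMSC-CM, with median log2 fold changes of -1.26 and -0.82. PSAT1, of serine synthesis, fell from 127 ± 5.36 to 24.6 ± 0.329 CPM in RPMI and from 146 ± 7.10 to 44.3 ± 3.11 CPM in hBMSC-CM. GPT2, a mitochondrial alanine aminotransferase, fell from 53.7 ± 2.26 to 9.76 ± 0.582 CPM in RPMI. Of 8 tested amino acid transporters, 7 fell in both media, with medians of -1.66 and -0.92, and in RPMI the other was the cystine transporter SLC7A11 (log2 fold change 0.07, edgeR adjusted p = 0.261), named after its value was seen. SLC7A1, a carrier of arginine and lysine, fell from 216 ± 8.10 to 18.05 ± 1.33 CPM in RPMI and from 265 ± 23.1 to 110 ± 5.04 CPM in hBMSC-CM. SLC7A5, a carrier of leucine, fell from 320 ± 6.68 to 30.3 ± 1.91 CPM in RPMI. All 12 cytosolic tRNA synthetase genes fell in both media, with medians of -1.08 and -0.53, and IARS was at 483 ± 7.56 CPM with vehicle and 161 ± 7.99 CPM with quizartinib in RPMI.

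The decrease of these metabolic targets was smaller in hBMSC-CM for most. By the interaction test, 7 of 14 synthesis genes, 6 of 8 transporters and 9 of 12 tRNA synthetases were called higher, and 1 synthesis gene was called lower. Over all tested genes these shares were 26.4% higher and 18.8% lower. With quizartinib, 9 of the 14, all 8 and 11 of the 12 had higher levels in hBMSC-CM, 2 synthesis genes and 1 tRNA synthetase had lower ones, and ATF4 was lower there. Among all tested genes 35.9% were called higher and 33.9% lower. The interaction was 2.31 ± 0.088 for SLC7A1 and 1.82 ± 0.070 for SLC7A5, above the 0.55 ± 0.11 of TRIB3. Against vehicle in RPMI, with the drug in hBMSC-CM, all 14 synthesis genes, 7 of the 8 transporters and all 12 tRNA synthetases were still lower, with medians of -0.69, -0.70 and -0.38, and the transporter SLC7A11 was higher (log2 0.74, edgeR adjusted p = 2.63e-10). The background there was 31.4% lower and 30.6% higher.

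Genes of the next lists changed in both directions. Of 21 tested stress and secreted targets, 10 rose and 9 fell in RPMI, against 39.8% and 39.4% of all tested genes. STC2, a secreted glycoprotein, fell from 23.0 ± 0.886 to 1.96 ± 0.0734 CPM, and EIF4EBP1, which blocks cap-dependent translation, from 120 ± 3.55 to 30.0 ± 1.74 CPM. KLHL24, an adaptor of a ubiquitin ligase, rose from 46.9 ± 2.13 to 187 ± 4.59 CPM, and TXNIP, which lowers glucose uptake, from 137 ± 6.42 to 481 ± 0.420 CPM. Of 23 tested genes listed as bZIP partners and repressors, 7 rose and 12 fell, against the same shares of all tested genes. The list includes CEBPZ, which fell (log2 -1.17) and is not a bZIP factor despite its name. BATF3 fell from 11.47 ± 0.0667 to 0.692 ± 0.235 CPM and FOSL1 from 8.001 ± 0.697 to 0.772 ± 0.0433 CPM. ATF7 rose from 12.4 ± 0.678 to 26.5 ± 1.96 CPM and MAFK from 29.1 ± 0.877 to 48.4 ± 3.31 CPM.

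The ATF6 and XBP1 arms of the unfolded protein response, which run beside ATF4, were read from 18 genes, mostly chaperones. In RPMI 13 fell and 3 rose, with a median of -0.41, and in hBMSC-CM 8 fell and 1 rose, with a median of -0.10. Over all tested genes 39.4% fell and 39.8% rose in RPMI, and 33.6% fell and 33.5% rose in hBMSC-CM. XBP1, the factor of its arm, fell from 160 ± 1.41 to 38.1 ± 0.995 CPM in RPMI and from 319 ± 6.91 to 184 ± 5.85 CPM in hBMSC-CM. MANF, a secreted protein of the endoplasmic reticulum, fell from 76.0 ± 2.44 to 27.3 ± 1.83 CPM in RPMI. ERN1 (IRE1), the sensor that splices XBP1, rose from 16.7 ± 0.444 to 38.0 ± 0.403 CPM in RPMI, and the ubiquitin ligase SYVN1 rose from 30.6 ± 1.01 to 40.7 ± 1.34 CPM. With vehicle alone, 14 of the 18 had a higher level in hBMSC-CM, with a median of 0.23, against 16.6% of all tested genes called higher.

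Genes related in function to SESN2 and DDIT4 moved opposite to DDIT4 with the drug. They also moved opposite to SESN2 in hBMSC-CM, whereas SESN2 was not called in RPMI. All 5 tested genes of that list, SESN1, SESN3, DEPTOR, TSC1 and TSC2, rose with quizartinib in RPMI (median log2 fold change 1.03) and in hBMSC-CM (median 0.52). Among all tested genes, 39.8% were called higher in RPMI and 33.5% in hBMSC-CM. DEPTOR, a further inhibitor of mTOR, rose from 3.97 ± 0.259 to 24.1 ± 1.49 CPM in RPMI and from 2.83 ± 0.114 to 8.18 ± 0.186 CPM in hBMSC-CM. SESN3 rose from 19.6 ± 0.221 to 72.8 ± 3.16 CPM in RPMI, where its relative SESN2 was at 36.0 ± 0.784 CPM with vehicle and 33.3 ± 2.77 CPM with quizartinib. With either treatment, all 5 were lower in hBMSC-CM than in RPMI, while DDIT4 was higher there. Of all tested genes, 15.5% were called lower there with vehicle and 33.9% with quizartinib. SESN2 was also lower there with quizartinib (log2 -0.46 ± 0.066, edgeR adjusted p = 2.53e-06) and was not called with vehicle.

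**Figure D4:**
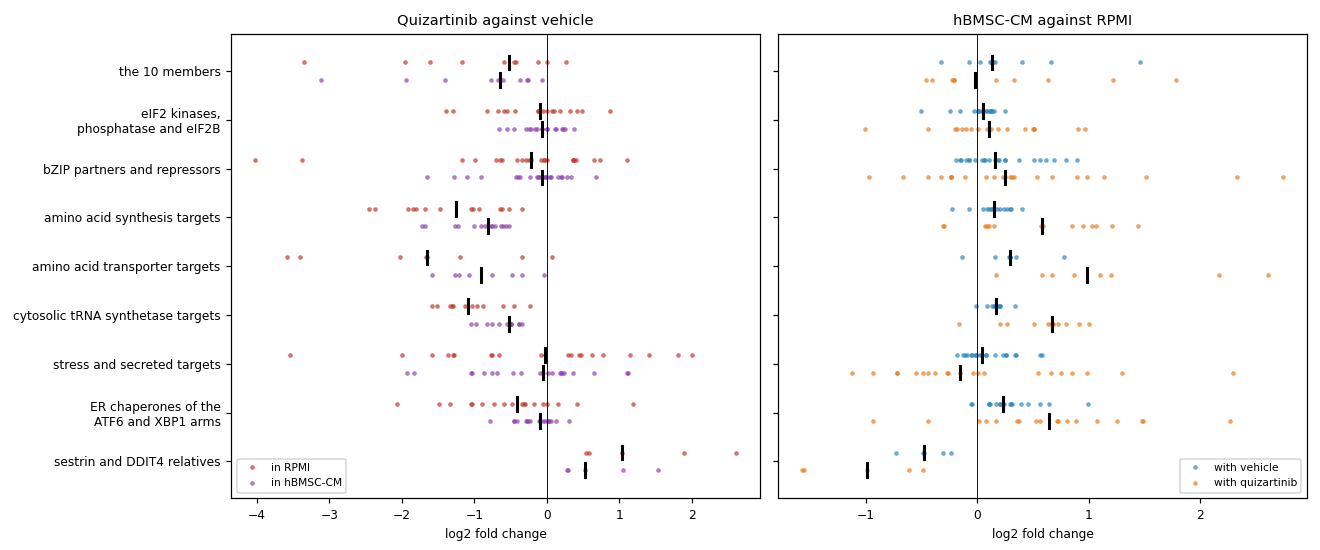
Log2 fold change of each tested gene of each list, as points, for quizartinib against vehicle (left) and hBMSC-CM against RPMI (right), with the median of each row as a black bar. For the drug, the synthesis, transporter and tRNA synthetase lists lie mostly left of 0 in both media, with medians of -1.26, -1.66 and -1.08 in RPMI, and the sestrin and DDIT4 relatives lie right of it.

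Genes of similar pattern were looked up for each member among the 9281 tested genes whose mean reached 10 CPM, by the root mean square difference in log2 CPM over the 12 libraries, each gene centred on its own mean. Nearest to ATF4 were PYCR1, an enzyme of proline synthesis that is also in the synthesis list (0.0605), RAB3IP (0.0805) and LNPK (0.0845), where ATF4 itself spanned 0.90 on that scale. The nearest gene to TRIB3 was EIF4EBP1 (0.158, span 2.77), to DDIT4 it was ID1 (0.174, span 2.15) and to CEBPG it was GFM1 (0.0333, span 0.64). UHRF1 was nearest to ATF5 (0.0759, span 1.42), S1PR3 to ASNS (0.132, span 2.19), DNMT3B to SESN2 (0.0843, span 0.75), SLC4A2 to ATF3 (0.0808, span 0.46) and MACO1 to DDIT3 (0.0730, span 0.43). The nearest gene to CHAC1 was HIST1H3A (0.552, span 4.03), or TNFAIP3 with a prior count of 0.5 in place of 2. The 12 points of each pattern share the libraries and their depth, and the distances describe them only.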

How the data were processed

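Poly-A selected RNA of 12 MOLM-13 cultures was sequenced as paired ends. The authors trimmed reads with BBDuk, removed those under 50 bases, aligned the rest with STAR 2.6.0a to hg38 (Ensembl release 96), added up Ensembl identifiers with the same gene name and deposited raw counts per gene. The strand setting of the counting is not given in the sources used here. Genes whose raw count and CPM both averaged 1 or more across the libraries were tested, following the study, which left 12998. Counts were scaled by TMM and tested, two-sided, with edgeR 4.0.16 (glmQLFit, glmQLFTest, R 4.3.3) in 1 model of 4 group means with 8 residual degrees of freedom, Benjamini-Hochberg adjustment over all tested genes and a threshold of 0.05. The study used limma, which is an alternative here. The script was tested on simulated data. Groups and replicate numbers came from the labels, and no column was left without a sample.

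The members and lists were chosen with earlier results of these data known. The text names all members, from each list up to 2 called genes with the largest increase and up to 2 with the largest decrease for quizartinib in RPMI, a few genes beside them to describe a list, and the genes of most similar pattern (prior count 2 on the log2 scale). Gene positions and exon lengths are from GENCODE v44 (GRCh38), another release of the build of the counts. Alternatives were 3 other scalings, DESeq2 1.42.0, limma-voom 3.58.1, other filters on low counts, models of the 2 groups compared, a replicate block and leaving out each library. No protein sequences were used here.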

Additional observations from a re-analysis of the deposited data

Results flagged for a closer look

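For 6 of the 10 genes the effect of quizartinib differed between the media by the interaction test (effect in hBMSC-CM minus effect in RPMI, log2 scale, edgeR adjusted p, 3 libraries in each of 4 groups), against 26.4% of all tested genes called higher and 18.8% called lower. The decrease was larger in hBMSC-CM for ATF4 (-0.34, adjusted p = 0.000206) and for SESN2 (-0.49, adjusted p = 0.000157). It was smaller in hBMSC-CM for ATF5 (0.50, adjusted p = 0.00343), DDIT4 (0.32, adjusted p = 0.000436), TRIB3 (0.55, adjusted p = 0.000353) and CEBPG (0.19, adjusted p = 0.0106). All 6 kept their sign and their call under each alternative that was run.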

How the results depend on the processing

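Of 1226 refitted log2 fold changes of single members, 1172 kept direction and side of the threshold, 10 lost the call, 32 gained it and 12, none of them called, turned direction. Of 250 refitted counts of members, 242 stayed within 1.5 times, as did 1957 of 2000 refitted counts of list genes. Scaling by library size only moved 12 of 40 mean levels by more than 1 SD. Members called lower in the interaction became 4 with DESeq2 size factors and with upper-quartile factors, and for hBMSC-CM against RPMI with the drug the members called lower became 4 with upper-quartile factors. Members raised by quizartinib in RPMI became 0 without the filter on low counts, with a filter at a mean of 10 CPM (which DDIT3 did not pass) and without replicate 1 of either RPMI group, so that leaving out libraries gave 0 to 1. For hBMSC-CM against RPMI with the drug the members called higher became 5 without the filter.

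The turned values were these. DDIT3 for quizartinib in hBMSC-CM was 0.0288 with library size only and 0.00842 with upper-quartile factors, and -0.158 to 0.0284 with libraries left out. ATF3 for quizartinib in RPMI was -0.00924 with limma-voom, -0.0983 without the filter and -0.000435 in the model of the 2 groups, and -0.0856 to 0.0918 with libraries left out. With libraries left out, SESN2 and ASNS in hBMSC-CM against RPMI with vehicle ranged from -0.0111 to 0.0741 and from -0.134 to 0.0159, and DDIT3 for quizartinib in hBMSC-CM against vehicle in RPMI from -6.58e-05 to 0.130. CHAC1 in hBMSC-CM against RPMI with vehicle lost its call with the DESeq2 Wald test (adjusted p = 0.0561). CEBPG, for quizartinib in hBMSC-CM against vehicle in RPMI, lost it with library size only (edgeR adjusted p = 0.412) and with upper-quartile factors (0.131). The causes were not tested.

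Scaling by library size only moved the median of all tested genes to 0.11 on the log2 scale for quizartinib in both media, and the share of called genes that were higher from 50% to 62.7% in hBMSC-CM. The labels do not say whether replicate numbers pair the libraries. Of 18 same-number pairs, 0 correlated above 0.1, which cannot show that the cultures were unpaired. With the replicate block the counts for quizartinib in RPMI stayed at 1 higher and 7 lower. CHAC1 and ASNS are limited by few reads, 9 to 30 in drug-treated libraries. Whether the exon bases shared with the read-through gene lowered the ASNS counts was not checked.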
